A study of Mus musculus with 12 samples.

Results

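CD8+ T cells that carry asGM1 on their surface were compared between Panc02 tumours treated with an anti-PD-1 antibody and Panc02 tumours treated with an isotype control antibody. The comparison took 6 of the 12 libraries of the study, chosen by their labels: 3 of asGM1-positive cells under anti-PD-1 and 3 of asGM1-positive cells under isotype. It covered the 18657 of 56941 genes in the deposited count table that passed an expression filter. The study sorted living CD45.2+ CD8+ cells (DAPI-negative) from tumours of Panc02, a mouse pancreatic cancer line, into cells without and with asGM1. Bulk RNA sequencing of them was to show what the presence of asGM1 on CD8+ T cells means. No gate on CD3 or the T cell receptor is named in the labels. All libraries came from wild type C57BL/6J mice, so that both groups shared strain, genotype, tumour and sort. They differed in the antibody given, whose clone, dose, time and route the labels do not state, and mouse age and sex are not stated either. Whether the 3 libraries of a group came from separate mice is not stated, and p-values then reflect only how these libraries vary, in part perhaps for technical reasons. A replicate named below is of asGM1-positive cells unless asGM1-negative is written.

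asGM1 (asialo-GM1) is a neutral glycosphingolipid, a sugar-bearing lipid of the outer membrane, widely used as a marker of mouse NK cells and of activated CD8+ T cells. PD-1, encoded by Pdcd1, is a receptor induced on T cells by antigen. Bound by its ligands, it recruits phosphatases that dampen signalling from the T cell receptor and from CD28, and an antibody against it lifts that brake. In tumours, CD8+ T cells under lasting antigen stimulation pass from stem-like to effector-like and terminally exhausted states, and some take up tissue residency.

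The 6 libraries held 58.1 to 72.8 M counts each (M, mega). Values are given in CPM, counts scaled to a common library size after TMM normalization. A gene at 0 counts may lie at up to 3 counts, or 0.0412 to 0.0516 CPM, a limit that covers counting error only. Mitochondrially encoded genes took 0.309 to 0.612% of counts in the 6 libraries. Along the first principal component of their log2 CPM (33.9% of the variance) the treatments were apart, and the second (21.8%) set isotype replicate 3 apart from the other 5 libraries. The defining markers of CD8+ T cells were present in all 6: Cd3e, a signalling chain of the T cell receptor complex, was at 1191, 1176 and 1300.2 CPM under isotype and 1258, 1264 and 1194 CPM under anti-PD-1. Cd8b1, the sorted coreceptor's β chain, was at 1798, 1814 and 1417 (isotype) and 1257, 1323 and 1384 (anti-PD-1) CPM, so every anti-PD-1 library was lower. The defining markers Cd8a and Cd3g were lower too and passed, as given below. Cd4 was at 1.20, 2.62 and 5.41 (isotype) and 4.20, 5.43 and 4.31 (anti-PD-1) CPM. Pdcd1 itself was at 1753, 2047 and 1783 CPM under isotype and 2212, 2347 and 2328 CPM under anti-PD-1. Every anti-PD-1 library was above every isotype library, but the difference did not pass (0.30 ± 0.11 SE on the log2 scale, edgeR adjusted p = 0.122). The antibody acts on the protein, so Pdcd1 RNA is no check of the treatment.

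Under anti-PD-1, RNA of cholesterol synthesis and glycolysis genes and of the residency genes Itgae and Zfp683 was lower. RNA of the protease inhibitors Serpinb9b, Serpinb6b, Serpinb9 and Serpine2, of the receptors Icos, Cd28 and Havcr2 and of the integrin Itgb3 was higher. Serpina3f and Serpina3g, of the same serpin gene family, fell at an edgeR adjusted p under 0.05. Of the 18657 genes tested, 694 rose and 561 fell at an adjusted p under 0.05 (edgeR's quasi-likelihood test, Benjamini-Hochberg adjusted over all genes), which is 3.72% and 3.01%, or 6.73% together. At least 2-fold changes made up 328 of the rises and 288 of the falls, and at least 4-fold changes 110 and 150. At an adjusted p under 0.01, 271 rose and 209 fell. Groups did not overlap for 1249 of the 1255 genes that passed. Among all genes tested, 11.8% were higher and 12.2% lower in every anti-PD-1 library. The median log2 fold change over all genes tested was -0.01. The number of genes that passed moved by over 1.5 times without anti-PD-1 replicate 1 (674) or 2 (680) or isotype replicate 1 (829). It was 677 in a fit of the 6 libraries alone and 604 without the libraries of anti-PD-1 replicate 2 of both populations. DESeq2 called 2264.

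Single genes are named first by the size of their change, among genes that passed with groups apart and a mean log2 CPM of 2 or more. Ceacam1 led the rises that passed with any 1 library left out. It encodes an adhesion molecule with inhibitory motifs that binds itself and the receptor TIM-3. Ceacam1 was at 1.81, 0.180 and 0.901 CPM in the isotype libraries and 28.4, 29.5 and 23.3 CPM in the anti-PD-1 libraries (4.83 ± 0.56 SE on the log2 scale, edgeR adjusted p = 0.000439). Serpine2, a secreted inhibitor of serine proteases, went from 35.2, 13.4 and 31.3 to 386, 545 and 363 CPM (4.02 ± 0.33, edgeR adjusted p = 4.66e-05). In both genes every anti-PD-1 library was far above the highest isotype library. Tg, which encodes thyroglobulin, the thyroid hormone precursor, rose from 6.73, 4.41 and 9.23 to 62.2, 126 and 66.6 CPM (3.65 ± 0.32, edgeR adjusted p = 7.27e-05). Smaller rises on the log2 scale were found in Ramp3, a partner of the calcitonin receptor-like receptor (3.61), Lhfpl2, a tetraspan membrane protein (3.50), Plcl1, a phospholipase C relative without catalytic activity (3.38), the non-coding RNA Mirt1 (2.91), Epas1, the hypoxia-inducible factor HIF-2α (2.80), Itgb3 (2.77), the trefoil peptide gene Tff1 (2.73), Rassf6 (2.67) and Npnt, an integrin ligand of the matrix (2.62). Glis1, a zinc finger transcription factor, had the largest fitted rise, from 0, 0 and 0.825 to 27.4, 11.6 and 6.16 CPM (5.76 ± 1.29, edgeR adjusted p = 0.0210). Large falls by the same rule were in Zfp683, Itgae, Xcl1, Fn1 and Ccl1. Fn1, the matrix protein fibronectin, fell from 50.4, 12.2 and 16.5 to 1.08, 2.64 and 2.09 CPM (-3.77 ± 0.66, edgeR adjusted p = 0.00601), with isotype replicate 1 far above the other 2 isotype libraries. Crybg2 (-2.70), Cdkn2b, the CDK inhibitor p15 (-2.66), and Tsc22d1, a leucine zipper protein (-2.52), fell as well. Calls that ended were Glis1 (edgeR adjusted p = 0.0665) in the fit of the 6 libraries alone, and Glis1 (0.0677) with anti-PD-1 replicate 2 of both populations left out. Glis1 (limma adjusted p = 0.112) did not pass under limma voom. Glis1 did not pass with anti-PD-1 replicate 1 or isotype replicate 1 left out (edgeR adjusted p = 0.0784 and 0.0515).

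**Figure D1:**
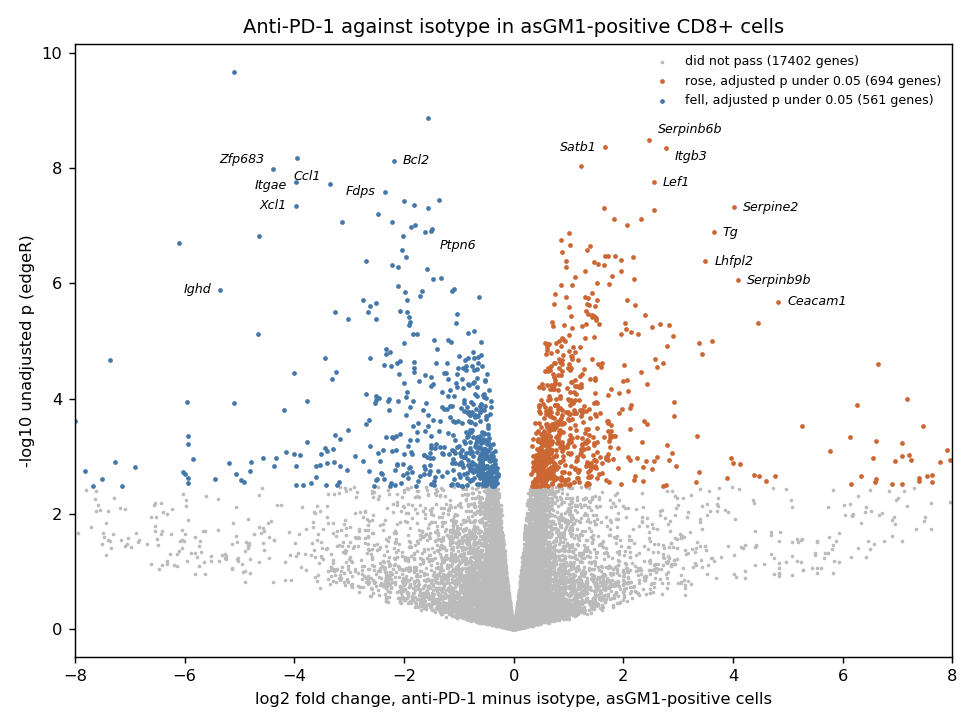
Log2 fold change (anti-PD-1 minus isotype, asGM1-positive cells) against -log10 of the unadjusted p from edgeR, one point per gene, with 37 genes beyond the horizontal range not drawn. The 694 genes that rose are orange, the 561 that fell are blue, and Serpinb6b, Itgb3 and Satb1 lie highest among the labelled rises.

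Genes of cholesterol synthesis and uptake fell together under anti-PD-1. Cells make cholesterol through the mevalonate pathway or take it up from lipoproteins, and the transcription factor SREBP-2 drives both when sterols are scarce. Of 26 tested genes of this list 18 fell (69.2%, against 3.01% of all genes), 1 rose and 7 stayed short of the threshold, and 24 of 26 were lower, with a median log2 fold change of -0.86. Among the enzymes Fdps, which makes farnesyl pyrophosphate, fell from 96.3, 124 and 125 to 18.002, 25.2 and 24.5 CPM (-2.35 ± 0.18, edgeR adjusted p = 3.65e-05). Cyp51, which demethylates lanosterol, fell from 89.7, 83.2 and 127 to 27.5, 26.1 and 25.9 CPM (-1.92 ± 0.24, edgeR adjusted p = 0.000780), and Sqle, the squalene epoxidase, from 57.9, 51.7 and 71.5 to 18.9, 20.9 and 16.6 CPM (-1.68 ± 0.19, edgeR adjusted p = 0.000330). None of these groups overlapped.

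Along the pathway, the early enzymes Mvk (-0.94), Mvd (-1.14) and Idi1 (-1.41), the squalene synthase Fdft1 (-0.76), the lanosterol synthase Lss (-1.02) and the later enzymes Msmo1 (-0.86) and Sc5d (-0.66) fell (log2 fold changes). So did Srebf2, which encodes SREBP-2, from 211, 201 and 284 to 112, 146 and 123 CPM (-0.87 ± 0.13, edgeR adjusted p = 0.00260), and Insig1, a protein that holds SREBPs in the endoplasmic reticulum, from 15.8, 27.2 and 26.2 to 8.49, 8.79 and 7.53 CPM (-1.48 ± 0.28, edgeR adjusted p = 0.00945). Stard4, a carrier of cholesterol between membranes, fell by 0.90 on the log2 scale. The gene that rose was Abcg1, an exporter of cholesterol, at 11.8, 13.2 and 9.81 under isotype and 18.4, 16.5 and 16.8 CPM under anti-PD-1 (0.57 ± 0.14, edgeR adjusted p = 0.0292). The threshold was not reached by Insig1 (edgeR adjusted p = 0.0506), Stard4 (0.0555), Abcg1 (0.106) and Hmgcs1 (0.0590) with anti-PD-1 replicate 2 of both populations left out, and Abcg1 (0.111) and Hmgcs1 (0.0507) in the fit of the 6 libraries alone. Abcg1 did not pass with anti-PD-1 replicate 1, 2 or 3 or isotype replicate 1 or 3 left out (edgeR adjusted p = 0.0556 to 0.111). Hmgcs1 did not pass with anti-PD-1 replicate 3 or isotype replicate 3 left out (edgeR adjusted p = 0.0590 and 0.0599). The number of list genes that fell ranged from 15 to 19 with any 1 library left out and was 13 with anti-PD-1 replicate 2 of both populations left out. In asGM1-negative cells, 17 of the 26 fell and 2 rose (median -0.74).

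**Figure D2:**
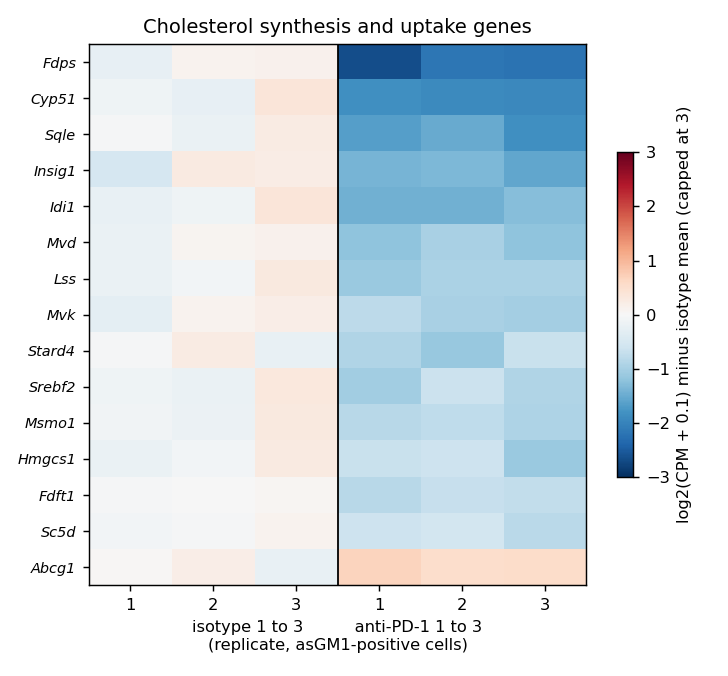
Log2(CPM + 0.1) of 15 cholesterol genes that passed and are named here, in each asGM1-positive library, minus the mean of the 3 isotype libraries and capped at 3 in either direction. The 3 anti-PD-1 columns are blue for the 14 of these genes that fell, darkest for Fdps, and red for Abcg1.

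Hmgcs1, an early enzyme of the mevalonate pathway, fell from 66.7, 72.6 and 92.8 to 48.1, 49.5 and 35.6 CPM (-0.80 ± 0.18, edgeR adjusted p = 0.0195). Its promoter is shown because it was the only one among the 11 of 18 fallen list genes with a RefSeq window (GRCm38.p6, 250 bases before the start searched) to hold the consensus sterol regulatory element TCACNCCAC, where SREBPs bind, on either strand. The motif was added to the search after the data were seen. It was present in 1.22% of the 27025 genes with a window. Where it was absent, only these letters are absent from this window, and Fdps and Sqle were not searched. The stretch lies at chr13:119690184-119690252, plus strand, with the match in capitals:
Hmgcs1: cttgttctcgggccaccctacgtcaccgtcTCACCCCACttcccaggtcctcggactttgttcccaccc

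Glycolytic enzymes and genes induced by hypoxia were lower under anti-PD-1, although RNA of the hypoxia-inducible factor itself was higher. Of 27 tested genes 13 fell, 2 rose and 12 did not pass (48.1% and 7.41%), with a median log2 fold change of -0.41. Aldoc, an aldolase, fell from 134, 181 and 143 to 45.0, 41.9 and 42.5 CPM (-1.82 ± 0.15, edgeR adjusted p = 4.66e-05), with the anti-PD-1 libraries close to each other. Gpi1 (-0.60), Pgam1 (-0.66), Pgk1 (-0.50) and Tpi1 (-0.53), which act along the same route from glucose to pyruvate, fell by smaller amounts on the log2 scale, without overlap of the groups. Among the other falls of the list, Vegfa, the endothelial growth factor, went from 12.6, 12.5 and 8.31 to 2.83, 2.15 and 3.38 CPM (-1.999 ± 0.32, edgeR adjusted p = 0.00368), Bnip3, a mitophagy receptor, from 363, 393 and 314 to 193, 158 and 129 CPM (-1.16 ± 0.21, edgeR adjusted p = 0.00666), and Egln3, a prolyl hydroxylase that marks HIF for degradation, from 25.6, 26.9 and 20.1 to 9.94, 12.5 and 9.29 CPM (-1.20 ± 0.19, edgeR adjusted p = 0.00333). Hif1a rose from 259, 206 and 308 to 768, 879.8 and 509.9 CPM (1.48 ± 0.24, edgeR adjusted p = 0.00324), with isotype replicate 3 the nearest to the anti-PD-1 libraries and no overlap. P4ha1, a collagen prolyl hydroxylase, fell by 0.67 on the log2 scale.

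Fatty acid oxidation genes gave 4 rises and 1 fall among 18 tested (22.2% and 5.56%, against 3.72% and 3.01% of all genes). Cpt1a, which loads fatty acids for entry into mitochondria, rose from 54.7, 45.7 and 59.0 to 157, 152 and 119 CPM (1.43 ± 0.17, edgeR adjusted p = 0.000625), and Slc25a20, the carrier that follows it, from 58.2, 63.6 and 54.1 to 113, 112 and 99.8 CPM (0.88 ± 0.09, edgeR adjusted p = 0.000125). Both showed 3 anti-PD-1 libraries well above 3 isotype libraries. None of 35 nuclear genes of oxidative phosphorylation, 13 mitochondrially encoded genes or 49 cytosolic ribosomal protein genes passed, with medians of -0.09, 0.13 and -0.07. In these 3 lists DESeq2 called 0 genes as well, and 3, 1 and 0 had an unadjusted p under 0.05. The 4 rises of fatty acid oxidation genes became 2 without anti-PD-1 replicate 1 or 2 or isotype replicate 1, in the fit of the 6 libraries alone and with anti-PD-1 replicate 2 of both populations left out. Their 1 fall became 0 without anti-PD-1 replicate 3 of asGM1-negative cells, anti-PD-1 replicate 1 or 2, isotype replicate 2 of asGM1-negative cells or isotype replicate 1 or 2, in the fit of the 6 libraries alone and with anti-PD-1 replicate 2 of both populations left out. The 2 rises of glycolysis and hypoxia genes became 1 without anti-PD-1 replicate 1 or 2 or isotype replicate 1 or 2, in the fit of the 6 libraries alone and with anti-PD-1 replicate 2 of both populations left out.

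Exhaustion-associated factors and several inhibitory receptors were higher under anti-PD-1, while the SLAM family receptor Cd244a was lower. Of 16 transcription factors linked to exhaustion 6 rose, and 16 of 16 were higher (37.5% rose, against 3.72% of all genes; median 0.49). Nr4a2, a nuclear receptor induced by T cell receptor signals, rose from 106, 116 and 111 to 302, 249 and 239 CPM (1.25 ± 0.16, edgeR adjusted p = 0.000808). Prdm1, which encodes BLIMP-1, a driver of effector and exhausted states, rose from 78.1, 64.6 and 88.7 to 184, 172 and 119 CPM (1.04 ± 0.19, edgeR adjusted p = 0.00809), and Tox2 from 1.12, 0.361 and 0.825 to 3.67, 4.03 and 2.27 CPM (2.12 ± 0.42, edgeR adjusted p = 0.0119). Tox, a factor needed for exhaustion, did not pass, at 81.6, 73.2 and 97.0 (isotype) and 163, 91.3 and 91.1 (anti-PD-1) CPM (0.45 ± 0.22, edgeR adjusted p = 0.266). The 6 rises of these factors became 3 without anti-PD-1 replicate 3 and with anti-PD-1 replicate 2 of both populations left out.

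Among 16 inhibitory receptors 5 rose and 1 fell (31.25% and 6.25%, against 3.72% and 3.01% of all genes). Havcr2, which encodes TIM-3, a mark of terminal exhaustion, rose from 544, 547 and 597 to 1070.3, 1088 and 980.1 CPM (0.89 ± 0.12, edgeR adjusted p = 0.00120), and Vsir, the receptor and ligand VISTA, from 227, 250.1 and 210.1 to 351, 464 and 367 CPM (0.78 ± 0.11, edgeR adjusted p = 0.00166). Cd160 rose from 92.9, 80.2 and 108 to 156, 213 and 223 CPM (1.07 ± 0.17, edgeR adjusted p = 0.00353), and Btla, which shares the ligand HVEM with it, from 3.73, 1.99 and 3.34 to 9.30, 10.5 and 5.74 CPM (1.49 ± 0.28, edgeR adjusted p = 0.00837). In all 4 the lowest anti-PD-1 library was above the highest isotype library. Ctla4, which competes with CD28 for its ligands, rose from 298, 536 and 269 to 865, 839 and 1031 CPM (1.31 ± 0.26, edgeR adjusted p = 0.0120). Cd244a, which encodes 2B4, fell from 356, 444 and 361 to 132, 127 and 132 CPM (-1.57 ± 0.13, edgeR adjusted p = 4.66e-05), with the 3 anti-PD-1 libraries far below the 3 isotype libraries. Lag3 and Tigit did not pass (0.37 ± 0.11, edgeR adjusted p = 0.0746 and 0.53 ± 0.15, edgeR adjusted p = 0.0642).

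Over the list of costimulatory and TNF superfamily genes 5 of 22 rose, 4 fell and 13 did not pass. These were 22.7% and 18.2%, against 3.72% and 3.01% of all genes. The median was 0.10, and the list did not move one way. Icos was at 230.0, 337 and 249.8 CPM under isotype and 824, 999 and 779 CPM under anti-PD-1 (1.67 ± 0.16, edgeR adjusted p = 0.000137), and Cd28, the main costimulatory receptor of T cells, at 193, 220.4 and 202 (isotype) and 492, 429.7 and 413 (anti-PD-1) CPM (1.12 ± 0.12, edgeR adjusted p = 0.000232). Tnfrsf1b, the TNF receptor TNFR2, rose by 0.73 and Cd27 by 0.62 on the log2 scale, and Tnfsf4, the OX40 ligand, by 1.92. Among the falls was Tnfsf10, the death ligand TRAIL (116, 90.0 and 102 to 46.9, 51.2 and 42.7 CPM; -1.13 ± 0.13, edgeR adjusted p = 0.000330). The threshold was missed by Tox2 (edgeR adjusted p = 0.0621), Btla (0.0577), Tnfrsf1b (0.0594) and Cd27 (0.0516) with anti-PD-1 replicate 2 of both populations left out, and Btla (0.0508) in the fit of the 6 libraries alone. Ctla4 did not pass with isotype replicate 1 left out (edgeR adjusted p = 0.0506). The 4 falls of this list became 2 without anti-PD-1 replicate 3 or isotype replicate 1 or 3 and in the fit of the 6 libraries alone, and 1 without anti-PD-1 replicate 1. Its 5 rises became 3 with anti-PD-1 replicate 2 of both populations left out.

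**Figure D3:**
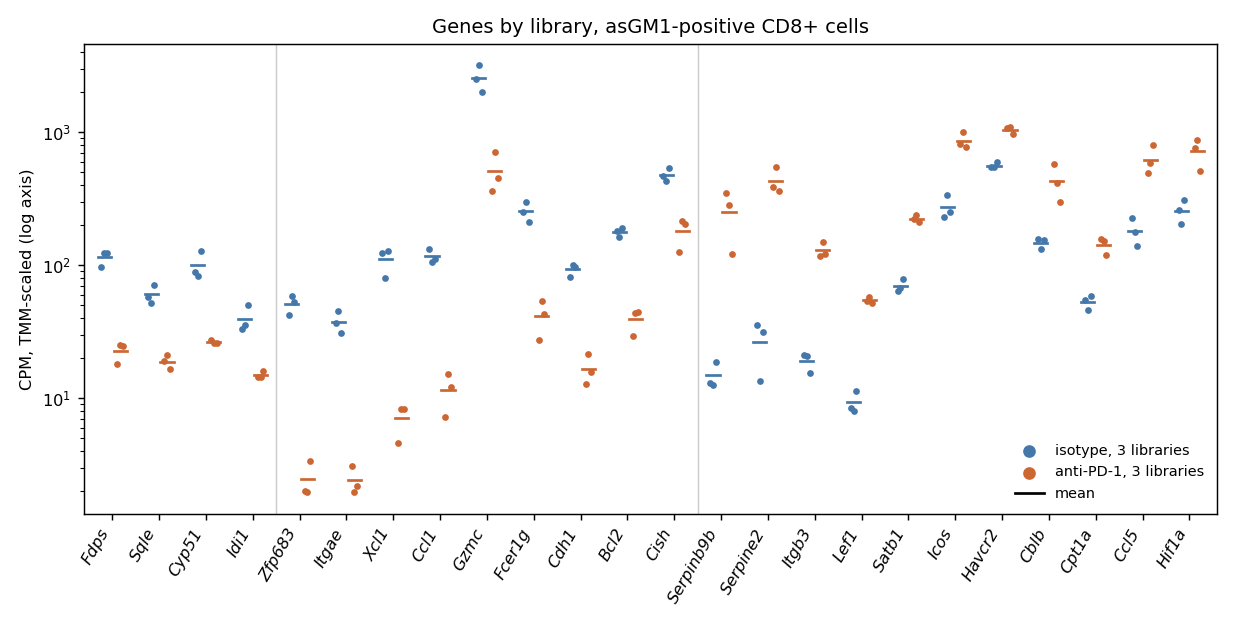
TMM-scaled CPM on a log axis for 24 named genes in each asGM1-positive library, isotype in blue and anti-PD-1 in orange, with a bar at the mean of 3. The left panel holds cholesterol genes, the middle one other genes that fell and the right one genes that rose. The 2 groups do not overlap for any of the 24. This follows from the choice, since all were picked from genes that passed, nearly all of which had groups apart.

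Brakes inside the T cell changed in both directions. Of 27 genes of negative feedback 7 rose and 5 fell (25.9% and 18.5%, against 3.72% and 3.01% of all genes). The phosphatase SHP-1, which acts on the T cell receptor complex, is encoded by Ptpn6, and its RNA fell from 1988, 2235 and 2206 to 662, 710.3 and 889 CPM (-1.51 ± 0.13, edgeR adjusted p = 7.27e-05). Cish, an inhibitor of cytokine and T cell receptor signalling induced by STAT5, fell from 473, 429 and 540.4 to 127, 216 and 204 CPM (-1.40 ± 0.20, edgeR adjusted p = 0.00157), and Socs1, an inhibitor of JAK kinases, from 81.9, 77.0 and 87.5 to 50.1, 43.1 and 45.8 CPM (-0.83 ± 0.11, edgeR adjusted p = 0.00101). Against these falls, Cblb, a ubiquitin ligase that sets the threshold for activation through CD28, rose from 158, 132 and 154 to 573, 415 and 301 CPM (1.54 ± 0.23, edgeR adjusted p = 0.00223). Dgka, a lipid kinase that ends diacylglycerol signals, rose from 174, 164 and 175 to 301, 364 and 330.2 CPM (0.96 ± 0.10, edgeR adjusted p = 0.000169). Rgs16, a regulator of chemokine receptor signals, rose by 1.02, Dusp5, a phosphatase of ERK kinases, by 1.21 and Dusp10 by 0.74 on the log2 scale. Of 26 T cell receptor signalling genes 4 rose and 2 fell (15.4% and 7.69%, against 3.72% and 3.01% of all genes). In this proximal pathway Ptpn22, a phosphatase of Lck, rose by 0.66 and Themis by 0.83, while Cd8a fell from 2581, 2421 and 2207 to 1591, 1710.0 and 1862 CPM (-0.48 ± 0.09, edgeR adjusted p = 0.00838). The other fall was Cd3g, a chain of the T cell receptor complex. Early activation genes gave 6 rises among 28 (21.4%, against 3.72% of all genes), with Tnfaip3, the NF-κB inhibitor A20, at 458, 617 and 635 (isotype) and 1231, 1434 and 1115 (anti-PD-1) CPM (1.14 ± 0.20, edgeR adjusted p = 0.00505) and Ier3 rising by 1.20. Calls that ended were Cd8a (edgeR adjusted p = 0.0603) and Cd3g (0.0689) in the fit of the 6 libraries alone. With anti-PD-1 replicate 2 of both populations left out, Cd8a (edgeR adjusted p = 0.0552) and Cd3g (0.110) ended as well. The 2 falls of T cell receptor signalling genes thus became 0 in both runs, and the 4 rises became 2. Cd3g did not pass with anti-PD-1 replicate 1 or 2 or isotype replicate 1 or 2 left out (edgeR adjusted p = 0.0723 to 0.121). The 5 falls of feedback genes became 3 without anti-PD-1 replicate 2 or 3 of asGM1-negative cells, anti-PD-1 replicate 1 or 2 or isotype replicate 1 or 2, in the fit of the 6 libraries alone and with anti-PD-1 replicate 2 of both populations left out. The 6 rises of early activation genes became 3 without anti-PD-1 replicate 1.

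Genes of naive and stem-like T cells changed in both directions, with more rises in the fit reported. Of 24 tested, 10 rose and 5 fell (41.7% and 20.8%, against 3.72% and 3.01% of all genes), with a median of 0.56. Satb1, a chromatin organiser of T cells, rose from 64.3, 67.6 and 78.9 to 223, 239.6 and 209.9 CPM (1.67 ± 0.11, edgeR adjusted p = 1.64e-05), and Lef1, a partner of TCF1 in memory and naive cells, from 8.40, 8.04 and 11.4 to 53.7, 57.2 and 52.1 CPM (2.55 ± 0.19, edgeR adjusted p = 2.86e-05). Il7r, the receptor that sustains memory cells, rose from 68.3, 70.7 and 54.8 to 153, 126 and 123 CPM (1.05 ± 0.13, edgeR adjusted p = 0.000625), and S1pr1, the receptor used to leave tissue, from 1.29, 1.92 and 1.94 to 8.06, 12.2 and 9.24 CPM (2.51 ± 0.32, edgeR adjusted p = 0.000836). The groups were apart for all 4. Tcf7 itself, which encodes TCF1, was at 10.8, 5.28 and 15.4 CPM under isotype and 6.27, 12.9 and 3.43 CPM under anti-PD-1 and did not pass (-0.48 ± 0.46, edgeR adjusted p = 0.626). Foxo1, which supports quiescence, rose by 0.69 on the log2 scale.

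The falls in this list included Bcl2 and Id3. The survival gene Bcl2 fell from 179.7, 162 and 190.5 to 29.4, 43.4 and 44.4 CPM (-2.18 ± 0.15, edgeR adjusted p = 1.98e-05), with every isotype library far above every anti-PD-1 library. Id3, an inhibitor of E proteins, fell from 1.50, 1.64 and 1.86 to 0.115, 0.192 and 0.302 CPM (-3.02 ± 0.38, edgeR adjusted p = 0.000684). Bcl2 and Cish are both STAT5 targets, and in the list of γ-chain cytokine receptors and STAT5 targets 7 of 24 rose and 6 fell (29.2% and 25%, against 3.72% and 3.01% of all genes). The kinase genes Pim2 and Pim1, also in that list, went opposite ways (-1.22 and 0.99). Il2rg, the shared γ chain, fell from 2872, 2773 and 2764 to 1732, 2099 and 2019 CPM (-0.52 ± 0.09, edgeR adjusted p = 0.00680), while Il12rb2, a chain of the interleukin-12 receptor, rose from 103, 73.3 and 132 to 427, 345 and 227 CPM (1.69 ± 0.33, edgeR adjusted p = 0.00961) and Ifngr1, a chain of the interferon-γ receptor, by 0.78. The threshold was not reached by Foxo1 (edgeR adjusted p = 0.0642) with anti-PD-1 replicate 2 of both populations left out. The 10 rises of naive and stem-like genes became 6 without isotype replicate 1, and 4 with anti-PD-1 replicate 2 of both populations left out. Falls numbered 4 in that last run, so rises no longer outnumbered them.

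Cytotoxic genes split into rises of granzyme inhibitors and mixed changes of the granzymes themselves. Serpins of the B family protect cytotoxic cells from granzymes that leak from granules. Serpinb9b rose from 13.1, 12.6 and 18.8 to 348, 283 and 122 CPM (4.08 ± 0.44, edgeR adjusted p = 0.000246), Serpinb6b from 55.6, 78.2 and 54.4 to 337, 391 and 310.2 CPM (2.46 ± 0.16, edgeR adjusted p = 1.64e-05) and Serpinb9, the inhibitor of granzyme B, from 158, 222 and 211 to 693, 788 and 496 CPM (1.74 ± 0.19, edgeR adjusted p = 0.000278). Each anti-PD-1 library lay above each isotype library, with anti-PD-1 replicate 3 the lowest of its group for Serpinb9b and Serpinb9. Among 26 granule genes 6 rose and 4 fell (23.1% and 15.4%, against 3.72% and 3.01% of all genes).

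Granzyme B did not pass, with Gzmb at 9616, 8119 and 6718 (isotype) and 5170.3, 6113 and 6258 (anti-PD-1) CPM (-0.48 ± 0.15, edgeR adjusted p = 0.0794), and neither did Gzma (-0.64 ± 0.45, edgeR adjusted p = 0.467) or the pore-forming perforin Prf1 (0.54 ± 0.22, edgeR adjusted p = 0.187). Gzmc fell from 2529, 3194 and 1995 to 363, 714 and 452 CPM (-2.34 ± 0.33, edgeR adjusted p = 0.00159), while Gzme rose from 48.8, 89.8 and 43.6 to 235, 293 and 194 CPM (1.99 ± 0.32, edgeR adjusted p = 0.00349) and Gzmk, the granzyme of memory-like cells, from 63.2, 83.3 and 46.5 to 120.0, 182 and 182 CPM (1.32 ± 0.24, edgeR adjusted p = 0.00750). Gzme has near-identical copies in its gene cluster, among which reads may have been divided. The granule protease Ctsw fell from 2477, 3080.0 and 2521 to 1084, 1331 and 1584 CPM (-1.01 ± 0.15, edgeR adjusted p = 0.00246). Terminal effector genes gave 5 rises among 18 (27.8%, against 3.72% of all genes), with Zeb2, a repressor of memory fate, at 17.9, 17.8 and 25.3 (isotype) and 65.2, 45.3 and 37.1 (anti-PD-1) CPM (1.28 ± 0.23, edgeR adjusted p = 0.00680).

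Cytokines and chemokines that CD8+ T cells secrete changed in a few members. Of 17 effector cytokines 3 fell (17.6%, against 3.01% of all genes). Lta, which encodes lymphotoxin-α, fell from 122, 92.1 and 125 to 30.3, 21.8 and 32.3 CPM (-2.01 ± 0.16, edgeR adjusted p = 4.59e-05), and its partner Ltb from 771, 998 and 833 to 399, 476 and 492 CPM (-0.93 ± 0.14, edgeR adjusted p = 0.00246). Ifng and Tnf did not pass (0.57 ± 0.16, edgeR adjusted p = 0.0624 and -0.40 ± 0.15, edgeR adjusted p = 0.155). Of 19 chemokine genes 4 rose and 3 fell (21.1% and 15.8%, against 3.72% and 3.01% of all genes). Xcl1, which attracts cross-presenting dendritic cells, was at 123, 80.6 and 128 CPM under isotype and 4.60, 8.35 and 8.26 CPM under anti-PD-1 (-3.97 ± 0.32, edgeR adjusted p = 4.66e-05), and Ccl1, the ligand of CCR8, at 133, 106 and 111 (isotype) and 7.24, 15.1 and 12.2 (anti-PD-1) CPM (-3.34 ± 0.25, edgeR adjusted p = 2.86e-05). Both had 3 high isotype libraries and 3 low anti-PD-1 libraries, with none between. Ccl5, a chemokine that attracts T cells and myeloid cells, rose from 226, 178 and 141 to 491, 585 and 797 CPM (1.78 ± 0.30, edgeR adjusted p = 0.00431), Ccl3 from 300.0, 197 and 201 to 422, 557 and 553 CPM (1.13 ± 0.21, edgeR adjusted p = 0.00783) and Ccl9 by 2.43 on the log2 scale. The threshold was missed by Ccl3 (edgeR adjusted p = 0.0519) with anti-PD-1 replicate 2 of both populations left out. The 5 rises of terminal effector genes became 3 without anti-PD-1 replicate 2, in the fit of the 6 libraries alone and with anti-PD-1 replicate 2 of both populations left out. The 4 rises of chemokine genes became 2 with anti-PD-1 replicate 2 of both populations left out.

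Genes of tissue residency held 2 of the largest falls. Resident memory T cells keep the integrin αE (CD103) to bind E-cadherin, and the transcription factor Hobit to stay in the tissue. Zfp683, which encodes Hobit, fell from 42.0, 59.1 and 52.6 to 2.0003, 1.96 and 3.37 CPM (-4.39 ± 0.31 SE on the log2 scale, edgeR adjusted p = 2.12e-05). Itgae, which encodes αE, fell from 37.1, 44.9 and 31.0 to 3.07, 1.96 and 2.17 CPM (-3.97 ± 0.29, edgeR adjusted p = 2.86e-05). In both genes the isotype libraries were all far above the anti-PD-1 libraries. Of 15 genes in the list 4 fell and 3 rose (26.7% and 20%, against 3.01% and 3.72% of all genes). The list thus did not move one way. Its rises were Prdm1, Nr4a1 and Itgb7, the integrin β7 that pairs with αE or α4, at 49.5, 66.0 and 68.4 (isotype) and 108, 276 and 165 (anti-PD-1) CPM (1.57 ± 0.29, edgeR adjusted p = 0.00776). Cdh1, which encodes E-cadherin, the ligand of CD103, and which was listed as an epithelial marker, fell from 81.7, 101 and 96.3 to 12.8, 21.3 and 15.8 CPM (-2.48 ± 0.21, edgeR adjusted p = 5.33e-05).

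Over 20 integrin and adhesion genes 5 rose, 2 fell and 13 did not pass (25% and 10%, against 3.72% and 3.01% of all genes; median 0.07). Itgb3, the β chain of the vitronectin receptor, was at 21.0, 20.7 and 15.4 CPM under isotype and 118, 150.2 and 121 CPM under anti-PD-1 (2.77 ± 0.18, edgeR adjusted p = 1.64e-05). Itga4, the α4 chain that binds VCAM-1, was at 20.7, 23.2 and 20.1 (isotype) and 78.4, 78.3 and 63.7 (anti-PD-1) CPM (1.78 ± 0.19, edgeR adjusted p = 0.000221). The tetraspanin Cd9 rose by 1.08 on the log2 scale. The 2 falls of this list became 1 in the fit of the 6 libraries alone and without any 1 of 9 of the 12 libraries. Calls that ended were Nr4a1 (edgeR adjusted p = 0.0772) without the expression filter, and Nr4a1 (0.148) with anti-PD-1 replicate 2 of both populations left out. Nr4a1 did not pass with anti-PD-1 replicate 1, 2 or 3 of asGM1-negative cells, anti-PD-1 replicate 1, 2 or 3, isotype replicate 3 of asGM1-negative cells or isotype replicate 1, 2 or 3 left out (edgeR adjusted p = 0.0515 to 0.124).

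Several genes shared with innate lymphocytes and several that mark other cells were also lower. In sorted bulk RNA, fewer cells of a type and less RNA per cell cannot be told apart. Fcer1g, a signalling adaptor of NK cells, myeloid cells and innate-like T cells, fell from 251, 301 and 213 to 27.2, 54.2 and 42.8 CPM (-2.62 ± 0.38, edgeR adjusted p = 0.00200). Klrb1c, which encodes NK1.1, fell from 14.8, 22.1 and 16.1 to 0.835, 4.86 and 2.92 CPM (-2.62 ± 0.57, edgeR adjusted p = 0.0183), and Styk1, a kinase-like NK receptor, from 150.3, 194 and 153 to 92.2, 114 and 101 CPM (-0.70 ± 0.13, edgeR adjusted p = 0.00828). These were 3 of 9 tested NK cell genes (33.3%, against 3.01% of all genes). The 12 listed NK cell genes summed to 470.1, 576 and 436 CPM under isotype and 159.9, 252 and 229.9 CPM under anti-PD-1, and without Fcer1g, Klrb1c and Styk1 the other 9 summed to 54.5, 57.7 and 54.2 (isotype) and 39.6, 78.6 and 83.2 (anti-PD-1) CPM. Ncr1, which encodes the receptor NKp46 of NK cells, stood at 0.172, 0 and 1.85 CPM under isotype and 0.101, 0.611 and 0.403 CPM under anti-PD-1, so 1 isotype library had none. Of 8 tested γδ T cell genes 2 fell (25%, against 3.01% of all genes). Among them was Trgc2, a constant segment of the T cell receptor γ chain (291, 312 and 230.5 to 80.8, 57.2 and 84.6 CPM, with -1.90 ± 0.23, edgeR adjusted p = 0.000646), whose paralogs may share its reads. Ighd, the δ heavy chain of B cells, fell from 5.71, 9.54 and 7.39 to 0.201, 0.314 and 0.0432 CPM (-5.35 ± 0.59, edgeR adjusted p = 0.000323).

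Macrophage markers gave 2 rises and 2 falls among 19 tested (10.5% each, against 3.72% and 3.01% of all genes), and the 20 listed summed to 1574, 1632 and 1489.6 CPM under isotype and 1236, 1572 and 1449 CPM under anti-PD-1. C1qa, a complement component of macrophages, fell from 19.8, 22.9 and 15.2 to 7.71, 7.91 and 11.8 CPM (-1.08 ± 0.24, edgeR adjusted p = 0.0210). Apoe did not pass, at 80.4, 95.7 and 65.2 (isotype) and 54.5, 82.7 and 102 (anti-PD-1) CPM (-0.01 ± 0.23, edgeR adjusted p = 0.987). The list of CD4 and regulatory T cell genes gave 2 rises among 10 (20%, against 3.72% of all genes), Icos and Ctla4, which CD8+ T cells also express, and summed to 985, 1282 and 961 (isotype) and 2251, 2569 and 2419 (anti-PD-1) CPM. Without Icos and Ctla4 the rest of that list was still higher in every anti-PD-1 library than in any isotype library. Of the 10 genes 8 were higher and 2 lower. Foxp3 was at 1.91, 3.43 and 4.32 (isotype) and 3.54, 6.22 and 7.13 (anti-PD-1) CPM. Of 18 plasmacytoid dendritic cell genes, Plac8, also found in T cells, rose from 103, 105 and 52.2 to 341, 371 and 370.5 CPM (2.06 ± 0.27, edgeR adjusted p = 0.000887) and Runx2 by 0.83 on the log2 scale, while Siglech was at 0, 0.236 and 0 (isotype) and 0.0720, 0.489 and 0 (anti-PD-1) CPM. Tumour, stromal and endothelial genes summed to 150.2, 128 and 124 CPM under isotype and 47.1, 59.1 and 52.9 CPM under anti-PD-1, Cdh1 included. Cdh1, given above, made up the larger part of each isotype sum, and the rest of that list overlapped between the treatments. Conventional dendritic cell genes summed to 482, 506 and 493 (isotype) and 296, 369 and 523 (anti-PD-1) CPM, and B and plasma cell genes to 165, 193 and 160.5 (isotype) and 27.9, 116 and 52.9 (anti-PD-1) CPM. The neutrophil and mast cell list and the erythroid and platelet list summed to at most 45.6 CPM in any of the 6 libraries. The part of these cells in the changes above was not tested. The threshold was not reached by C1qa (edgeR adjusted p = 0.0501) in the fit of the 6 libraries alone, and C1qa (0.117) with anti-PD-1 replicate 2 of both populations left out. Klrb1c did not pass with anti-PD-1 replicate 3 or isotype replicate 2 left out (edgeR adjusted p = 0.0520 and 0.0537). C1qa did not pass with anti-PD-1 replicate 1 or 2 or isotype replicate 1 or 2 left out (edgeR adjusted p = 0.0589 to 0.0969). The 2 falls of macrophage markers became 1 without anti-PD-1 replicate 1 or 2 or isotype replicate 1 or 2, in the fit of the 6 libraries alone and with anti-PD-1 replicate 2 of both populations left out. Their 2 rises became 1 without anti-PD-1 replicate 3 of asGM1-negative cells, anti-PD-1 replicate 1 or 3 or isotype replicate 3, in the fit of the 6 libraries alone and with anti-PD-1 replicate 2 of both populations left out, and 0 without anti-PD-1 replicate 2 or isotype replicate 2. The 2 falls of γδ genes became 1 in the fit of the 6 libraries alone and with anti-PD-1 replicate 2 of both populations left out. The 2 rises of CD4 and regulatory T cell genes became 1 without isotype replicate 1. DESeq2 called 5 rises in that list.

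Interferon-stimulated genes were lower throughout, but few passed. All 34 tested had a negative log2 fold change, with a median of -0.66 against -0.01 over all genes. Of them 4 passed (11.8% fell, against 3.01% of all genes). Oasl1, an antiviral sensor relative, fell from 14.8, 9.12 and 7.22 to 2.53, 2.04 and 2.58 CPM (-2.12 ± 0.37, edgeR adjusted p = 0.00594), and Isg20, an exonuclease, from 367, 388 and 237 to 144, 150.0 and 167 CPM (-1.11 ± 0.23, edgeR adjusted p = 0.0144). Oas3, which makes the signal that activates RNase L, fell from 69.4, 49.5 and 46.3 to 33.5, 28.3 and 32.7 CPM (-0.81 ± 0.21, edgeR adjusted p = 0.0440). Isotype replicate 1 was the highest of all 6 libraries for Oasl1 and Oas3, and the groups were apart. Among interferon-γ-induced genes 4 of 31 fell and 1 rose (12.9% and 3.23%, against 3.01% and 3.72% of all genes). Cxcl10, a ligand of CXCR3, fell from 54.5, 29.3 and 21.8 to 9.96, 9.96 and 8.01 CPM (-1.92 ± 0.42, edgeR adjusted p = 0.0183), and Gbp3, a guanylate-binding protein, rose from 94.2, 62.4 and 87.5 to 156, 153 and 142 CPM (0.88 ± 0.16, edgeR adjusted p = 0.00734). The threshold was missed by Isg20 (edgeR adjusted p = 0.0764), Oas3 (0.192) and Cxcl10 (0.0664) with anti-PD-1 replicate 2 of both populations left out, Oas3 (0.0703) without the expression filter, and Oas3 (0.0503) in the fit of the 6 libraries alone. Oas3 (limma adjusted p = 0.0515) did not pass under limma voom. Isg20 did not pass with anti-PD-1 replicate 1 or 2 or isotype replicate 2 left out (edgeR adjusted p = 0.0672, 0.0582 and 0.0523). Oas3 did not pass with anti-PD-1 replicate 1, 2 or 3 of asGM1-negative cells, anti-PD-1 replicate 1, 2 or 3, isotype replicate 2 of asGM1-negative cells or isotype replicate 1 or 2 left out (edgeR adjusted p = 0.0583 to 0.158). Cxcl10 did not pass with anti-PD-1 replicate 1, 2 or 3 or isotype replicate 1 left out (edgeR adjusted p = 0.0593 to 0.0670). The 4 falls of interferon-stimulated genes became 8 without isotype replicate 3 of asGM1-negative cells, 2 without anti-PD-1 replicate 3 of asGM1-negative cells or isotype replicate 1 and with anti-PD-1 replicate 2 of both populations left out, and 1 without anti-PD-1 replicate 1 or 2 or isotype replicate 2. The 4 falls of interferon-γ-induced genes became 2 without anti-PD-1 replicate 2 or isotype replicate 1 and in the fit of the 6 libraries alone, and 1 without anti-PD-1 replicate 1 and with anti-PD-1 replicate 2 of both populations left out.

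The promoters of Cxcl10 and Oas3 are shown as examples of called genes of these lists that hold the core of the interferon-stimulated response element, where interferon-activated factors bind. Socs1, which fell, and Gbp3, which rose, hold it too. The core was found on either strand in 10 of 23 tested interferon-stimulated genes with a window (43.5%), in 11 of 21 interferon-γ-induced genes (52.4%) and in 3.46% of the 27025 genes with a window. It was about as common among all rises (3.58%) and all falls (4.4%) as among tested genes with a window (3.42%). The stretches lie on the minus strand of GRCm38.p6 (RefSeq), at chr5:92349063-92349132 and chr5:120777695-120777764, with the match in capitals:
Cxcl10: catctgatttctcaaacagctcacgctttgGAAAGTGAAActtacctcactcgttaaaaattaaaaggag
Oas3: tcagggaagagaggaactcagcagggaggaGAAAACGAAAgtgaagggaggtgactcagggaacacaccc

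Of 20 heat shock chaperone genes 6 fell and 1 rose (30% and 5%, against 3.01% and 3.72% of all genes). The median was -0.30. Hspb1, a small heat shock protein, fell from 11.2, 8.97 and 5.90 to 0.878, 1.83 and 0.187 CPM (-3.18 ± 0.67, edgeR adjusted p = 0.0159), and Dnajb1, a co-chaperone, from 276, 296 and 283 to 151, 206 and 166 CPM (-0.71 ± 0.15, edgeR adjusted p = 0.0184). Hspa1a, the inducible HSP70, was at 343, 440.3 and 427 CPM under isotype and 32.6, 146 and 22.5 CPM under anti-PD-1, where replicate 2 stood well above its group, and did not pass (-2.59 ± 0.74, edgeR adjusted p = 0.0585). Its near-identical copy Hspa1b, with which it may share reads, passed at 369, 483 and 488 (isotype) and 41.7, 156 and 30.4 (anti-PD-1) CPM (-2.56 ± 0.70, edgeR adjusted p = 0.0495). The call of Hspa1b ended without 10 of the 12 libraries, each left out in turn (edgeR adjusted p = 0.0502 to 0.183), all but anti-PD-1 replicate 2 and anti-PD-1 asGM1-negative replicate 2. It also ended in the fit of the 6 libraries alone (edgeR adjusted p = 0.0569), without the expression filter (0.0756) and with DESeq2's size factors in edgeR (0.0503). The 6 falls of chaperones became 2 without isotype replicate 1 and in the fit of the 6 libraries alone, 1 without isotype replicate 2, and 0 without anti-PD-1 replicate 1. Calls that ended were Hspb1 (edgeR adjusted p = 0.0526) in the fit of the 6 libraries alone. Hspb1 did not pass with anti-PD-1 replicate 1 left out (edgeR adjusted p = 0.0717). Dnajb1 did not pass with anti-PD-1 replicate 1 or 3 or isotype replicate 2 left out (edgeR adjusted p = 0.0884, 0.0557 and 0.0609).

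Of 13 metallothionein and zinc genes 3 rose (23.1%, against 3.72% of all genes), among them the metallothioneins Mt1 and Mt2. Metallothioneins bind zinc and copper and are induced by metals and glucocorticoids. Mt1 was at 58.6, 71.6 and 55.0 CPM under isotype and 169.8, 123 and 118 CPM under anti-PD-1 (1.15 ± 0.27, edgeR adjusted p = 0.0259), and Mt2 at 9.84, 11.2 and 7.65 (isotype) and 41.4, 27.7 and 26.1 (anti-PD-1) CPM (1.73 ± 0.34, edgeR adjusted p = 0.0101). The threshold was not reached by Mt1 (edgeR adjusted p = 0.0704) with anti-PD-1 replicate 2 of both populations left out. Mt1 did not pass with anti-PD-1 replicate 1 or 2 or isotype replicate 1 or 3 left out (edgeR adjusted p = 0.0554 to 0.108). Their promoters are shown for TGCACNC, a form of the core of the metal response element, where the factor MTF-1 binds. Other forms of the core were not searched and are not marked. TGCACNC was present in 4 of 11 metallothionein and zinc genes with a window (36.4%) and in 11.8% of all genes with one. Both stretches lie on the plus strand of GRCm38.p6, at chr8:94179036-94179088 for Mt1 and chr8:94172368-94172604 for Mt2, with matches on either strand in capitals:
Mt1: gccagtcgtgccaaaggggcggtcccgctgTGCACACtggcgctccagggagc
Mt2: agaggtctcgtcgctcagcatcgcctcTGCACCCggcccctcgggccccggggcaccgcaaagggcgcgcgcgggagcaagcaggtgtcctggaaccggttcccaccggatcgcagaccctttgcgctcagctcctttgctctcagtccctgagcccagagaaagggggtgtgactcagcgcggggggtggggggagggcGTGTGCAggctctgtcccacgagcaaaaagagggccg

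In asGM1-positive cells few mitosis and DNA replication genes passed, as did few of all genes tested. Of 34 mitosis genes Cenpa, a centromere histone, was the only one to pass (2.94% rose, against 3.72% of all genes). It rose from 221, 239 and 257 to 419, 407 and 384 CPM (0.76 ± 0.09, edgeR adjusted p = 0.000361), although 29 of 34 were lower (median -0.16). Of 35 DNA replication genes 1 fell, the thymidine kinase Tk1, from 185, 211 and 183 to 125, 133 and 159.8 CPM (-0.47 ± 0.10, edgeR adjusted p = 0.0210), with a median of -0.07. Mki67, a proliferation marker, was at 298, 259 and 167 (isotype) and 231, 153 and 279 (anti-PD-1) CPM (-0.12 ± 0.24, edgeR adjusted p = 0.845). Ccnd3, a cyclin that drives entry into S phase, fell from 546, 513 and 651 to 301, 391 and 351 CPM (-0.71 ± 0.12, edgeR adjusted p = 0.00495). Among 20 targets of p53, 5 rose (25%, against 3.72% of all genes). Perp, an apoptosis effector, went from 7.11, 6.97 and 8.90 to 22.7, 22.04 and 20.1 CPM (1.50 ± 0.19, edgeR adjusted p = 0.000656), Trp53inp1 rose by 0.73 and Phlda3 by 0.93 on the log2 scale. The threshold was missed by Tk1 (edgeR adjusted p = 0.0831) in the fit of the 6 libraries alone, and Tk1 (0.104) with anti-PD-1 replicate 2 of both populations left out. Tk1 did not pass with anti-PD-1 replicate 1 or 2 or isotype replicate 2 left out (edgeR adjusted p = 0.0915, 0.0923 and 0.0760). The 5 rises of p53 targets became 3 without anti-PD-1 replicate 1 or 2, in the fit of the 6 libraries alone and with anti-PD-1 replicate 2 of both populations left out. The 0 falls of mitosis genes became 2 without anti-PD-1 replicate 3, and 1 without isotype replicate 3 of asGM1-negative cells or isotype replicate 1.

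The enzymes that build asGM1 itself did not pass in the fit reported. B4galnt1, the transferase that makes asialo-GM2 and GM2, was at 960.3, 903 and 1152 CPM under isotype and 1405, 1496 and 1291 CPM under anti-PD-1 (0.48 ± 0.13, edgeR adjusted p = 0.0554). Its groups were apart, and it passed with the replicate number as a block over all 12 libraries (edgeR adjusted p = 0.0413). B3galt4, which adds the next galactose, was at 13.1, 15.3 and 16.95 (isotype) and 12.2, 16.2 and 12.5 (anti-PD-1) CPM (-0.15 ± 0.16, edgeR adjusted p = 0.666). Of 28 genes of glycosphingolipid synthesis and breakdown 3 rose and 2 fell (10.7% and 7.14%, against 3.72% and 3.01% of all genes). St3gal5, the GM3 synthase that starts the sialylated branch, fell from 4.82, 3.23 and 6.02 to 1.64, 2.03 and 2.06 CPM (-1.30 ± 0.30, edgeR adjusted p = 0.0228). St6galnac3, a sialyltransferase of complex gangliosides, rose from 6.37, 4.36 and 5.02 to 12.7, 20.8 and 14.1 CPM (1.60 ± 0.24, edgeR adjusted p = 0.00238), and Galc, which degrades galactosylceramide, by 1.03 on the log2 scale. St6gal1, a sialyltransferase of glycoproteins outside this list, fell from 8.45, 16.9 and 19.5 to 0.763, 3.14 and 3.02 CPM (-2.70 ± 0.46, edgeR adjusted p = 0.00498). Calls that ended were St3gal5 (edgeR adjusted p = 0.0565) in the fit of the 6 libraries alone, and St3gal5 (0.0959) with anti-PD-1 replicate 2 of both populations left out. St3gal5 did not pass with anti-PD-1 replicate 1 or 2 or isotype replicate 1 or 3 left out (edgeR adjusted p = 0.0594 to 0.0993). The 2 falls of the list became 1 without isotype replicate 1 or 3, and 0 without anti-PD-1 replicate 1 or 2, in the fit of the 6 libraries alone and with anti-PD-1 replicate 2 of both populations left out.

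**Figure D4:**
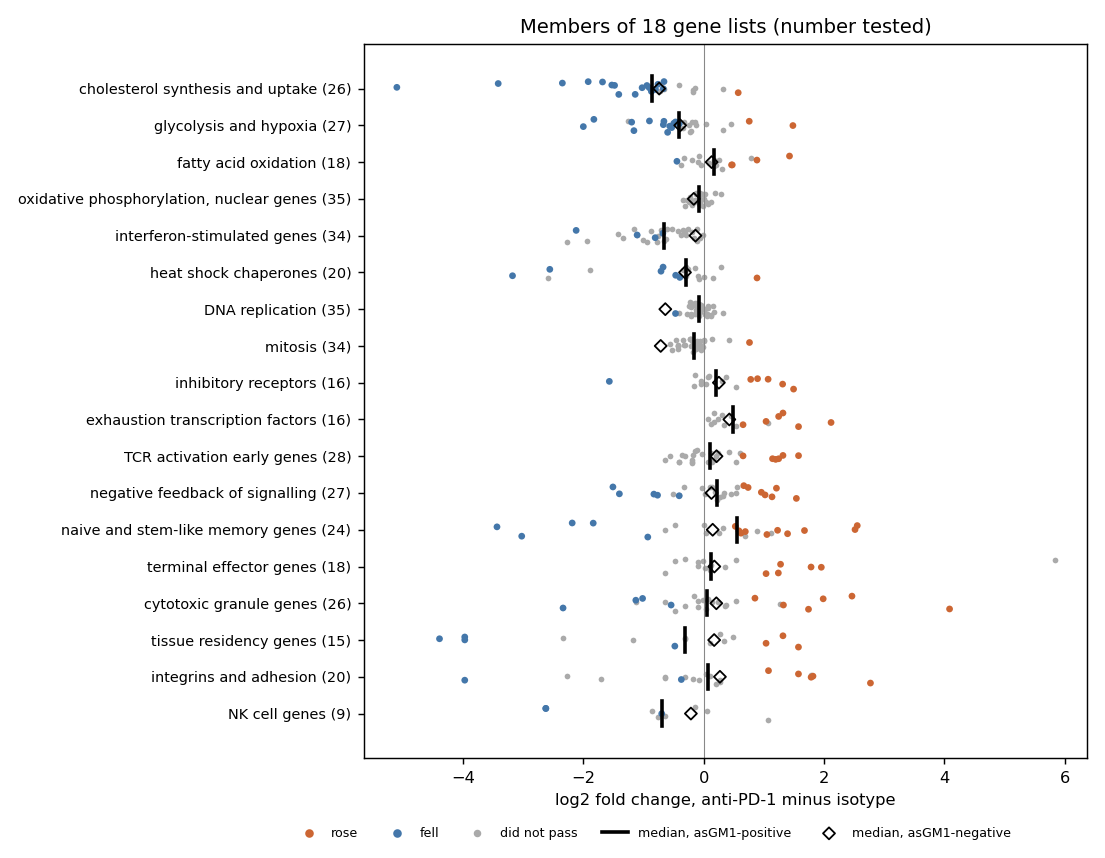
Log2 fold changes of the tested members of 18 gene lists, one point per gene, orange for rises, blue for falls and grey where the test was not passed. The bar is the median in asGM1-positive cells, lowest for the cholesterol list (-0.86), and the open diamond the median in asGM1-negative cells, which lies left of the bar for DNA replication and mitosis.

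The same comparison was made in asGM1-negative cells. The calls of the populations are not independent, since libraries of the 2 populations with the same treatment and number deviated together from their group means (r = 0.121 to 0.298 across genes). There 767 genes rose and 831 fell (4.11% and 4.45%). Of the 1255 genes that passed in asGM1-positive cells 663 also passed in asGM1-negative cells in the same direction and 2 in the opposite one. The falls of Xcl1 (-3.32 on the log2 scale) and Ccl1 (-3.47) and the rises of Serpine2 (3.63) and Itgb3 (2.16) were also found there. Other genes stood further apart: Itgae changed by -3.97 in asGM1-positive and -1.90 in asGM1-negative cells, S1pr1 by 2.51 and 0.85, Btla by 1.49 and -0.03, and Cd160 by 1.07 and 0.09. Of 35 DNA replication genes 1 fell in asGM1-positive and 18 fell in asGM1-negative cells (medians -0.07 and -0.64), and of 34 mitosis genes 0 and 21 fell (medians -0.16 and -0.71). In asGM1-positive cells DESeq2 called 3 falls among the mitosis genes, and 10 of the 34 had an unadjusted p under 0.05 with edgeR. These pairs of counts do not by themselves show a difference between the populations.

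The difference of the 2 responses was tested as an interaction over all 12 libraries. No gene passed with edgeR without a block (lowest adjusted p = 0.274), while 1329 genes had an unadjusted p under 0.05 and DESeq2 called 136. Itgae differed by -2.07 ± 0.37 (edgeR adjusted p = 0.288), S1pr1 by 1.67 ± 0.43 (edgeR adjusted p = 0.442) and Btla by 1.52 ± 0.39 (edgeR adjusted p = 0.438), positive minus negative. With the pair of libraries of the same treatment and number as a block 5 genes passed with edgeR: Ifit3, Ifit3b, Pclaf, Zdhhc14 and Cd160. In asGM1-positive cells Ifit3, an interferon-stimulated gene, was at 334, 177 and 121 CPM under isotype and 113, 119 and 96.6 CPM under anti-PD-1, and Pclaf, a clamp-associated replication factor, at 264, 251 and 293 (isotype) and 259, 231 and 270.1 (anti-PD-1) CPM. Pclaf thus overlapped between the treatments here and fell by 0.89 on the log2 scale in asGM1-negative cells.

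**Figure D5:**
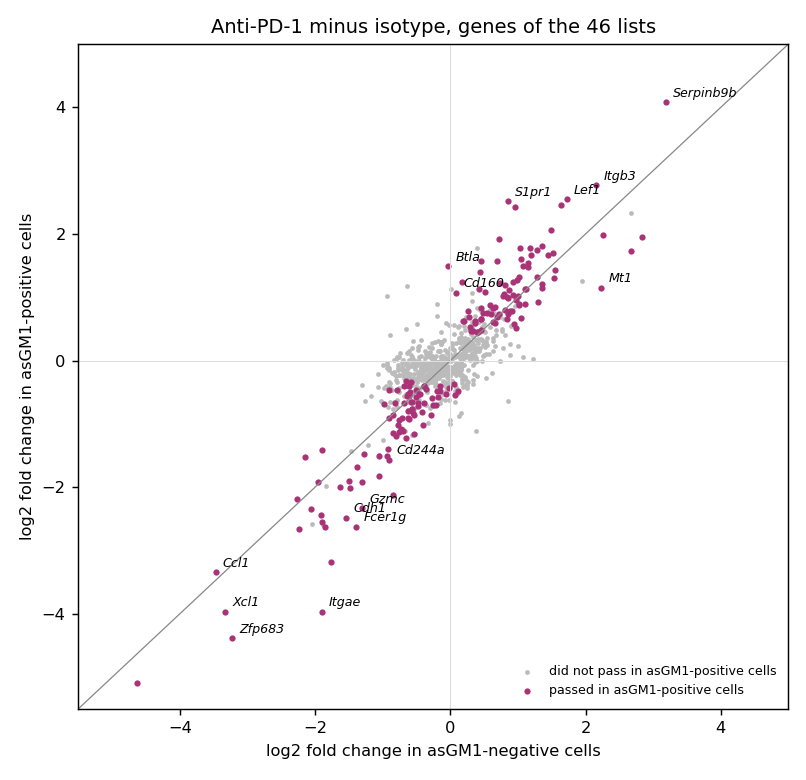
Log2 fold change in asGM1-positive cells against that in asGM1-negative cells for 758 genes of the 46 lists whose mean log2 CPM was 2 or more, one point per gene. The 177 that passed in asGM1-positive cells are purple, and Itgae lies off the line of equal change, at -3.97 against -1.90.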

How the data were processed

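RNA of sorted cells, extracted with TRIzol, was made into libraries with a SMARTer ultra low input kit and TruSeq chemistry, per the labels' protocols. Counts per gene were deposited by the authors as whole numbers for 56941 genes and 12 libraries, with no normalization. HISAT2, StringTie and the build mm39 are named in the submitters' processing notes, without versions, and whether the counts were tallied or derived from coverage is not stated. All members, gene lists and tests were chosen with earlier results of these data known.

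Genes were filtered with filterByExpr, scaled by TMM and tested with edgeR 4.0.16 (quasi-likelihood test, R 4.3.3) over all 12 libraries with a mean per group, so that the asGM1-negative libraries helped to estimate the spread. No block was used in the contrast reported. Adjusted p-values are Benjamini-Hochberg over 18657 genes, with a threshold of 0.05. SE is the log2 fold change divided by the square root of F. The 310 genes with a blank symbol stayed in under their identifiers. The test was tested on simulated data before use. No library pair within a group agreed within sampling noise.

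Named genes were the 14 largest rises and 14 largest falls (average log2 CPM at least 2, groups apart, no predicted, histone or receptor segment genes), up to 5 called members of each of 46 lists, and a fixed set of well known genes. Others named were chosen after their values were seen. Libraries of the 2 populations with the same treatment and number were treated as pairs only in a second run of the difference test. The first run, which gave the differences of Itgae, S1pr1 and Btla, used no block. Pairs were formed since each of the 6 correlated above 0.1 in deviations from the group means (r = 0.121 to 0.298). The labels do not say what a number marks. Alternatives were DESeq2 1.42.0, limma 3.58.1 voom, DESeq2's size factors, no filter, replicate blocks, the 6 libraries alone, and each library left out.

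Promoter sequences are from RefSeq (GRCm38.p6), and no coordinate was taken from the count table. For the lines printed, the stretch is the match with up to 30 bases on either side.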

Additional observations from a re-analysis of the deposited data

Results flagged for a closer look

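The response to anti-PD-1 differed between asGM1-positive and asGM1-negative cells for 5 genes in edgeR's test of the difference with the block of treatment and number, all at an adjusted p of 0.0387. None of the 5 passed without the block (edgeR adjusted p = 0.274 to 0.803), and none passed with the block when any 1 of the 6 pairs of libraries was left out (edgeR adjusted p = 0.0754 to 0.270). The cause of these differences was not tested.

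Cd160, an inhibitory receptor that binds HVEM, responded by 0.97 more on the log2 scale in asGM1-positive cells, where it rose, than in asGM1-negative cells, where its change was 0.09. Pclaf, a replication factor bound to the sliding clamp, differed by 0.80, with a fall in asGM1-negative cells and -0.09 in asGM1-positive cells. Ifit3 differed by -0.94 and its near-identical neighbour Ifit3b, with which it may share reads, by -0.996. Both are interferon-stimulated genes. In asGM1-positive cells Ifit3b was at 107, 56.2 and 40.1 CPM under isotype and 35.3, 38.4 and 27.7 CPM under anti-PD-1, with isotype replicate 1 the highest. Zdhhc14, a palmitoyltransferase, had a fitted difference of 9.74 that depends on the prior count, since it had 0 counts in all 3 isotype libraries of asGM1-positive cells, against 4.66, 0.768 and 1.30 CPM under anti-PD-1.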

How the results depend on the processing

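Of 1255 genes that passed, 1240 also passed with DESeq2's size factors in edgeR and 1121 under limma voom. The count was 2264 with DESeq2, which called all 1255, 677 in the fit of the 6 libraries alone (640 of them shared), and 604 with anti-PD-1 replicate 2 of both populations left out (565 shared). It ranged from 674 to 1252 with any 1 library left out. An adjusted p under 0.01 left 480 genes, and a minimum of 2-fold left 616. Without the expression filter 973 genes passed. The cause of these moves was not tested. For the difference of the responses, DESeq2 called 136 genes and the replicate block of treatment and number 5, while edgeR without the block called 0 with any 1 library left out.

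Isotype and anti-PD-1 replicates share only numbers. Their deviations from the group means correlated at 0.01, -0.06 and -0.11 for the same number, and not every library correlated best with its own number. With the replicate number as a block 1356 genes passed (1134 shared) over all 12 libraries, and 174 (168 shared) in the 6 libraries alone, where few degrees of freedom remain. Among named genes that block over all 12 libraries ended no call, while in the 6 libraries alone it ended 76 of 138 calls. Over the 12 libraries Ifng, Tigit, B4galnt1 and Hspa1a passed (edgeR adjusted p = 0.0348, 0.0383, 0.0413 and 0.00459).

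No named gene that passed changed direction under any alternative run. Among named genes that did not pass, the log2 fold change turned sign for the following, with the range over single libraries left out: Cd3e from -0.000914 to 0.0663 (negative without isotype replicate 2) and Apoe from -0.229 to 0.202 (positive without isotype replicate 2 or anti-PD-1 replicate 1). Mki67 ranged from -0.329 to 0.0846, positive without isotype replicate 1 or anti-PD-1 replicate 2, and was 0.0794 with anti-PD-1 replicate 2 of both populations left out. Siglech ranged from -1.20 to 6.48, negative without anti-PD-1 replicate 2, and was -1.21 without that replicate of both populations. Ncr1 ranged from -1.43 to 2.12, positive without isotype replicate 3, and was 1.25 under limma voom, 1.24 with the pair as a random block, 0.0454 with the replicate block and 0.139 with that block in the 6 libraries alone. Depth limits genes at or near 0 counts, such as Siglech and Ncr1.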

Other observations

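Growth genes changed in few members. Of 26 MYC target and ribosome biogenesis genes 3 fell and 1 rose (11.5% and 3.85%, against 3.01% and 3.72% of all genes). The median was -0.20. Slc3a2, the heavy chain of amino acid transporters, rose from 321, 368 and 332 to 494, 479.9 and 491 CPM (0.52 ± 0.08, edgeR adjusted p = 0.00380), and Srm, the spermidine synthase, fell from 78.7, 66.1 and 86.0 to 44.4, 51.2 and 47.4 CPM (-0.69 ± 0.15, edgeR adjusted p = 0.0170). In asGM1-negative cells 10 of the 26 fell and 2 rose. The threshold was not reached by Srm (edgeR adjusted p = 0.0578) with anti-PD-1 replicate 2 of both populations left out. Srm did not pass with anti-PD-1 replicate 1 or isotype replicate 1 or 3 left out (edgeR adjusted p = 0.0767, 0.0522 and 0.0525). The 3 falls of MYC targets became 1 without anti-PD-1 replicate 2 and in the fit of the 6 libraries alone, and 0 without anti-PD-1 replicate 1 or isotype replicate 1 or 3 and with anti-PD-1 replicate 2 of both populations left out.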
